A study of Mus musculus with 16 samples.

Results

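Gata3, Emx2, Sox9, Lhx1, Pax8, Sim1, Tfap2a, Tfap2b and Pou3f3 encode transcription factors named for the ureteric bud and the tubules of the kidney. These 9 genes, of 18193 genes with a symbol of their own on the array, were measured by 18 of the 45037 probe sets used. They were taken by gene symbol, and each gene was read through the probe set with the highest mean log2 signal over all 16 arrays; the other probe sets were checked against it. The tissue was the kidney of the mouse embryo at E11.5, when the bud has entered the metanephric mesenchyme.

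Each of 4 arrays held wild-type ureteric bud, with 3 to 9 buds in a pool. A further 3 arrays held wild-type metanephric mesenchyme from single rudiments. Both structures were parted by hand after collagenase at 0.5 mg/ml and 37 °C. Another 4 arrays held wild-type mesenchyme lifted by laser from 7 µm sections of kidney rudiments, with 3 to 4 mesenchymes in a pool. The last 5 arrays held mesenchyme null for both Hoxa11 and Hoxd11, also lifted by laser from 7 µm sections, but of urogenital ridges. The source piece thus differed together with genotype and cannot be told apart from it; for the null captures the labels speak of several sections and give no number of mesenchymes. Neither strain nor the design of the null alleles is given in the sources used here. Per the series text, the work asked which genes mark each structure and which might lie under the control of the Hox pair.

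The ureteric bud is an epithelial outgrowth of the nephric duct. It branches into the collecting ducts in answer to GDNF from the mesenchyme, which acts through the receptor Ret, and it induces the mesenchyme around its tips to form nephron tubules. Gata3, Lhx1, Emx2, Pax8 and Sox9 are known from work on the duct, the bud or its branching, and Lhx1, Pou3f3 and Pax8 are also known from the forming nephron. The AP-2 factors Tfap2a and Tfap2b and the bHLH-PAS factor Sim1 are less studied at this stage.

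The upstream regions are shown because these genes share a tissue and because the binding letters of their families are well known. RefSeq (GRCm38.p6) windows from 250 bases before to 50 bases after the start held 9 entries for 8 of the genes, with 2 entries for Tfap2a. Exact letters of 6 motifs were searched on both strands. AP-2 factors were given as GCCNNNGGC and the POU octamer as ATGCAAAT. Zinc finger proteins of the GATA kind were searched by AGATAA. For the HMG box of the SOX proteins the letters were AACAAT. Homeodomain proteins such as Emx2 and Lhx1 were searched by TAATTA. The bHLH-PAS partners, to which Sim1 belongs, were searched by TACGTG. No letters of 1 match overlapped another, and 3 of the 9 windows held a match, where 41.1% of all 32851 windows did. The Gata3 window lies at chr2:9878551-9878850 on the minus strand, the Tfap2a window at chr13:40734871-40735170 on the minus strand and the Emx2 window at chr19:59458440-59458739 on the plus strand. Capitals mark the matches.
Gata3: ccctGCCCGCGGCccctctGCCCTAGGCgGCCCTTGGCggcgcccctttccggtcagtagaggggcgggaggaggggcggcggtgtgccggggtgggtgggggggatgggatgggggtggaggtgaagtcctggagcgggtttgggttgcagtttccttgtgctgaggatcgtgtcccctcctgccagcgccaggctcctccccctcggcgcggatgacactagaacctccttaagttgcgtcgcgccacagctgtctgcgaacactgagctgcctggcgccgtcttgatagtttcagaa
Tfap2a: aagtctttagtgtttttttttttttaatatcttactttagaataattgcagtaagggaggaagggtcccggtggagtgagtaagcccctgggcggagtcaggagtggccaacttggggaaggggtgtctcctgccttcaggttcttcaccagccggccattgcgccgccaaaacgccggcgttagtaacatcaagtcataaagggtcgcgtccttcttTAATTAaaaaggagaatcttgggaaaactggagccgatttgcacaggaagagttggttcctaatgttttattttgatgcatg
Emx2: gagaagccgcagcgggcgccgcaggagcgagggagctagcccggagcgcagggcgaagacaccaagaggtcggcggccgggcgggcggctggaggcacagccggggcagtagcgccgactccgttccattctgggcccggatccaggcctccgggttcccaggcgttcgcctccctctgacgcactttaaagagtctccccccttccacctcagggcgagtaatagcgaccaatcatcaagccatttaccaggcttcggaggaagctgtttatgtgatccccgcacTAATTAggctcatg
In Gata3 the AP-2 letters began 246, 231 and 221 bases before the start, and 16.6% of all windows held them at least once. In Tfap2a the homeodomain letters began 32 bases before the start. In Emx2 they began 36 bases after it, and 5.29% of all windows held them. A match is a run of letters and not a measured binding site.

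The labels were first checked on the arrays. The Hoxa11 probe set read 525.5 to 839.6 in the 4 wild-type captures and 91.8 to 196.6 in the 5 null captures. That of Hoxd11 read 318 to 587 and 192 to 482, so the Hoxd11 ranges overlapped; the position of either probe set relative to the deleted part was not known here. The summed signal of 14 bud epithelium markers ran from 237484 to 307360 in bud, from 3272 to 3488 in hand-dissected mesenchyme, from 12453 to 76538 in wild-type captures and from 15271 to 57824 in null captures. All 13 of these markers that could be tested were higher in bud than in hand-dissected mesenchyme. Of 9 nephron progenitor markers tested, 8 were lower in bud than in hand-dissected mesenchyme and 1 was higher. Six2, which marks nephron progenitors, was at 435 to 699.5 in bud and 20603 to 23655 in hand-dissected mesenchyme. In the captures Six2 was lower than that, at 2673 to 6372 in wild type and 610 to 8465 in null. Cited1 of the same list went the other way, with a mean of 256 in bud and 61.8 in hand-dissected mesenchyme. In null replicate 5 the summed signal of 7 gonad and coelomic markers was 29193, against 599 to 1057 in the other null arrays, so the differences of the 9 genes in the null captures, each through its chosen probe set, are given with and without it. Array medians ran from 113 to 209.

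**Figure D1:**
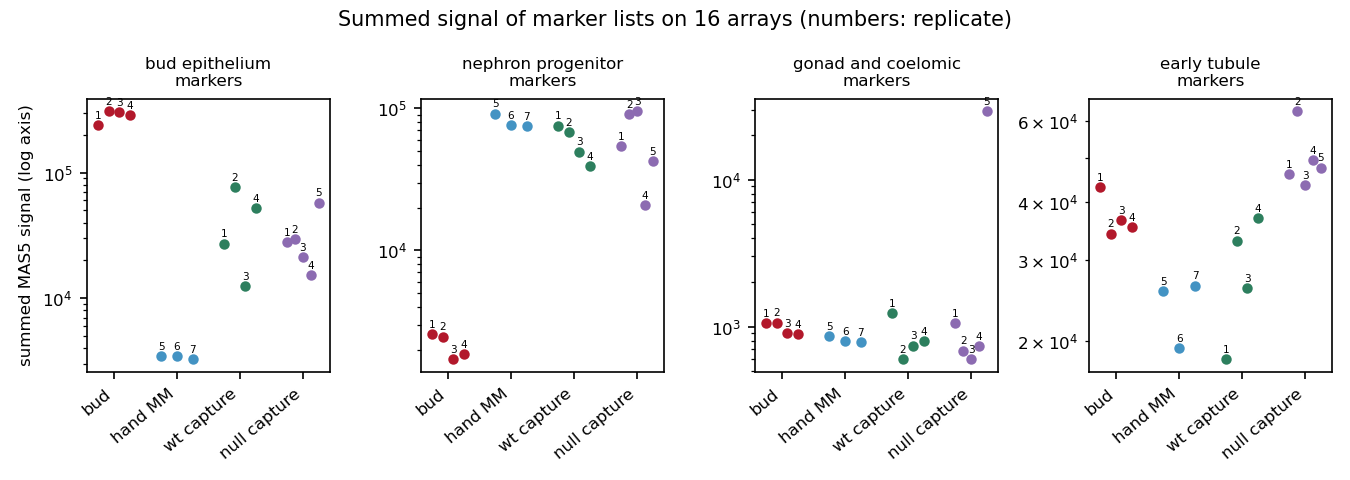
Summed MAS5 signal (log axis) of 4 marker lists on each of the 16 arrays, 1 point per array with its replicate number. Bud markers sit between 3272 and 3488 in all 3 hand-dissected mesenchymes and at 12453 or above in every capture, and null replicate 5 stands alone in the gonad and coelomic panel at 29193.

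Of the 9 genes, 8 were higher in bud than in hand-dissected mesenchyme, by 5.31 to 6.64 on the log2 scale for 7 of them and by 1.06 for Pax8. Sox9 was not called. By the same rule (limma, adjusted p under 0.05), 13.9% of the 12435 genes tested were called higher in bud and 28.5% in either direction. In 8 of the 9 every bud array lay above every mesenchyme array, as in 17.5% of all genes tested. Gata3, Lhx1, Sim1 and Tfap2b passed the filter on dim probe sets only through the bud arrays, so a difference for these 4 was built into their being tested. In bulk tissue, fewer cells of a type and less RNA per cell cannot be told apart. In 7 genes, all but Pax8 and Sox9, the 3 wild-type groups did not overlap on the chosen probe set, with bud highest, captures next and hand-dissected mesenchyme lowest. The share of all genes with this order was not counted. Captures and hand-dissected mesenchyme overlapped on the second probe sets of Lhx1, Sim1, Tfap2b and Pou3f3 and the dimmest of Tfap2a. On the second Tfap2a probe set they did not. Values are MAS5 signals, in order of replicate number.

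**Figure D2:**
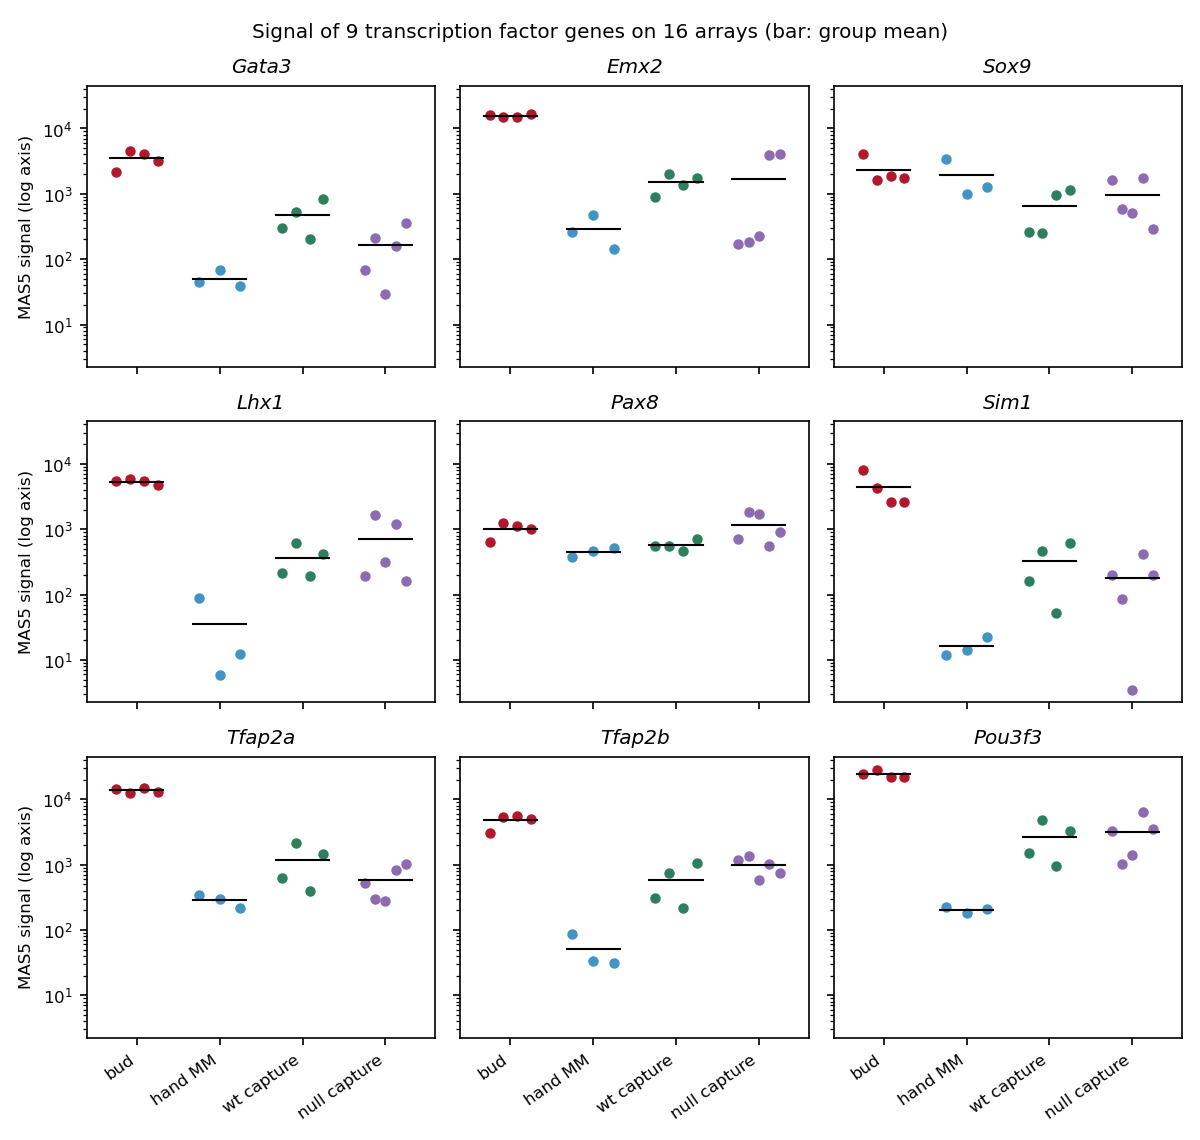
MAS5 signal (log axis) of the 9 genes on each of 16 arrays in 4 groups, 1 point per array, with a bar at the group mean. The 4 bud points lie above all 3 hand-dissected mesenchyme points in every panel except Sox9, and the wild-type captures lie between the 2 for 7 genes.

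Gata3, a zinc finger factor needed for the nephric duct and the guidance of the bud, read 2151, 4520.1, 4000.1 and 3234 in the bud arrays. The 3 hand-dissected mesenchymes read 44.4, 67.1 and 38.8. The bud mean of 3476 ± 1030 (SD, n = 4) stood against 50.1 ± 15.0 (SD, n = 3) in the mesenchyme, with a log2 difference of 5.31 ± 0.28 SE (limma adjusted p = 1.15e-07). None of the hand-dissected mesenchymes had Gata3 above its own median signal, so the size of the difference rests on background there. Wild-type captures read 295, 534, 207 and 842, between the other 2 wild-type groups without overlap.

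Emx2, a homeodomain factor without which the bud degenerates soon after it forms, was among the steadiest in bud, at 16091, 15082, 15181 and 16498. Hand-dissected mesenchymes read 263, 473 and 141. The bud mean was 53.8-fold higher, with a log2 difference of 5.71 ± 0.31 SE (limma adjusted p = 1.28e-07). Wild-type captures read 884, 1978, 1367.5 and 1732.5, again between bud and hand-dissected mesenchyme.

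Lhx1 is a LIM homeodomain factor of the nephric duct, the bud and later the early nephron. Its bud arrays read 5491, 5761, 5376 and 4742, and its hand-dissected mesenchymes 88.8, 5.8 and 12.1. Bud was higher by a log2 difference of 6.40 ± 0.34 SE (limma adjusted p = 1.19e-07). The second Lhx1 probe set differed the same way but by less, 2.97 ± 0.30 SE. The mesenchyme values lie at the low end of the array scale, and with an offset of 100 in place of 36.3 the first probe set differed by 5.38 ± 0.24 SE.

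Sim1, a bHLH-PAS factor best known from the hypothalamus, had the most uneven bud values of the 9, at 7974, 4285, 2648 and 2602. All 3 hand-dissected mesenchymes were at 22.3 or below (11.8, 14.4 and 22.3). On the log2 scale the groups differed by 6.24 ± 0.36 SE (limma adjusted p = 2.11e-07). Its second probe set gave 1.10 ± 0.28 SE, also called higher (limma adjusted p = 0.0146). The 2 probe sets therefore agreed in direction and not in size.

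Tfap2a encodes an AP-2 factor of ectoderm, neural crest and several epithelia. It read 14368, 12543, 14672 and 12999 in bud and 343, 300.2 and 219 in hand-dissected mesenchyme. Bud was higher by a log2 difference of 5.42 ± 0.21 SE (limma adjusted p = 1.49e-08), and 6.55 ± 0.23 SE on a second probe set. Its remaining probe set was too dim to be tested.

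Tfap2b, the AP-2 factor needed for survival of the renal epithelium, read 3005, 5264.5, 5619 and 5026 in bud. Hand-dissected mesenchymes read 86.4, 33.7 and 31.0. Bud was higher on the log2 scale by 5.80 ± 0.30 SE (limma adjusted p = 9.24e-08), and 3.30 ± 0.44 SE on the second probe set. Both AP-2 genes thus showed no overlap of bud and mesenchyme arrays.

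Pou3f3, a POU domain factor of the brain and of the distal nephron, read 24028, 28461, 21910 and 21657 in bud. The hand-dissected mesenchymes read 222, 178.5 and 209.8. The log2 difference, 6.64 ± 0.20 SE (limma adjusted p = 3.08e-09), came with no overlap of the groups. A second probe set was dim in all groups and was not tested.

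Pax8, a paired-box factor of the nephric lineage and the early tubule, differed least among the called genes. Bud arrays read 640.0, 1257, 1108 and 995, and hand-dissected mesenchymes 371, 461 and 519. The lowest bud array was thus above the highest mesenchyme. The bud mean of 1000.1 ± 263 (SD, n = 4) was 2.22-fold that of 450.3 ± 74.5 (SD, n = 3), with a log2 difference of 1.06 ± 0.26 SE (limma adjusted p = 0.0116). Unlike Gata3, Lhx1, Sim1 and Tfap2b, Pax8 was above the array median in all 3 hand-dissected mesenchymes. A second Pax8 probe set was dim in all groups and was not tested. Its means were 25.5 in bud and 49.1 in hand-dissected mesenchyme, with overlapping arrays.

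Sox9, an HMG-box factor of bud tips that also drives cartilage, read 4099.9, 1598, 1891 and 1773 in bud. Hand-dissected mesenchymes read 3456, 985.5 and 1284. Replicate 1 of the bud and replicate 5 of the mesenchyme were far above the others of their groups, and the groups overlapped. The log2 difference was 0.39 ± 0.43 SE (limma adjusted p = 0.547). A second Sox9 probe set read 461 ± 132 (SD, n = 4) in bud and 177 ± 23.6 (SD, n = 3) in mesenchyme and was called higher in bud, by 1.19 ± 0.27 SE (limma adjusted p = 0.00737). The remaining one was not tested. Without hand-dissected replicate 5 the first probe set gave 0.92 ± 0.36 SE (limma adjusted p = 0.0995). Whether Sox9 differed between the structures therefore depended on the probe set.

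**Figure D3:**
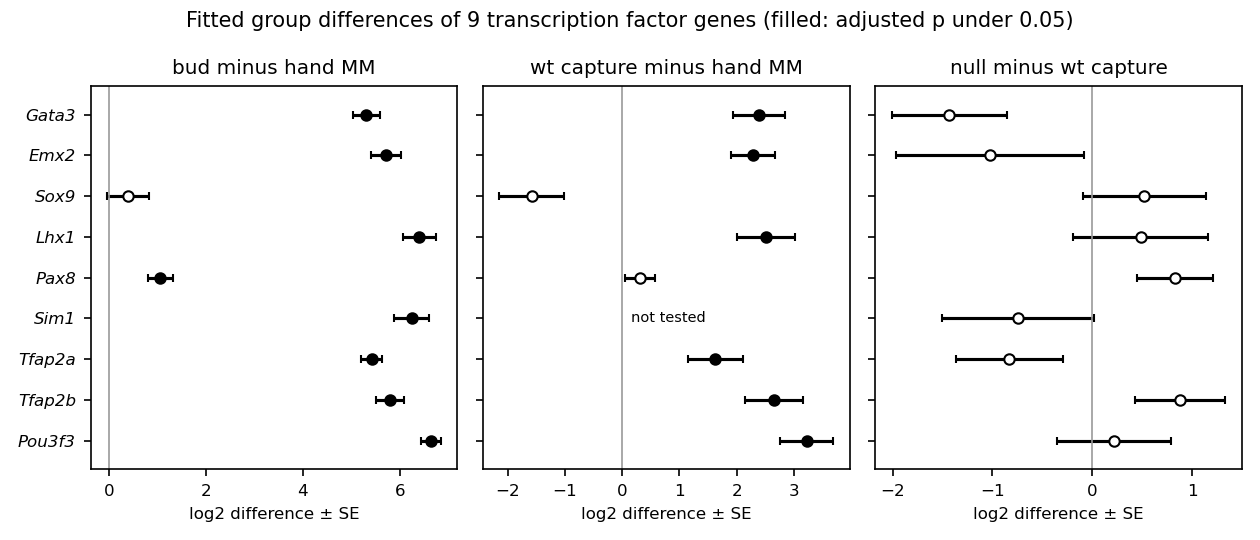
Fitted log2 differences ± SE of the 9 genes in the 3 comparisons, with filled points for a limma adjusted p under 0.05 and open points otherwise. In the left panel 7 genes lie above 5, Pax8 at 1.06 and Sox9 at 0.39; in the right panel no point is filled.

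When the 4 wild-type captures stood in for the hand-dissected mesenchyme, all 9 genes were called higher in bud, and the differences shrank to between 0.75 (Pax8) and 3.89 (Lhx1). Sox9 then differed by 1.97 ± 0.46 SE (limma adjusted p = 0.00550). The bud arrays and the captures also differed in isolation method. The ratio of 3' to 5' control signal, a measure of RNA quality, differed between groups. For Gapdh it averaged 8.72 in bud, 42.5 in hand-dissected mesenchyme, 19.8 in wild-type captures and 22.5 in null captures. For b-actin it averaged 13.1 in bud, 13.8 in hand-dissected mesenchyme, 17.1 in wild-type captures and 20.8 in null captures. The part of RNA quality in the differences was not tested.

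Related family members did not all share the bud pattern. Of 18 relatives listed, 17 were measured and 9 tested between bud and hand-dissected mesenchyme; 4 were higher in bud, 1 lower, and their median log2 difference was 0.33, against 0.0058 over all genes tested. Tfap2c, another AP-2 gene, was higher at 1045 ± 214 against 39.1 ± 49.0 (log2 difference 4.00 ± 0.37 SE). The other 3 were Sox8, a close relative of Sox9 (3.28 ± 0.26 SE), Pou3f4 (2.49 ± 0.27 SE) and Emx1 (3.57-fold by the ratio of means). Gata6 was lower in bud, at 167 ± 69.7 against 1557 ± 323 (-3.02 ± 0.31 SE). Gata2 read 3514 ± 1061 in bud and 5228 ± 601 in mesenchyme and was not called (-0.61 ± 0.25 SE, limma adjusted p = 0.1002). Pou3f1 (0.33 ± 0.24 SE), Gata4 and Sox10 were not called either. Lhx2, Lhx5, Lhx9, Pax5, Pou3f2, Sim2, Tfap2d and Tfap2e were too dim in both groups to be tested.

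Other regulators of the bud and ducts were read from a list of 30, of which 27 were measured and 23 tested. In bud 13 were higher and 2 lower than in hand-dissected mesenchyme, with a median log2 difference of 1.22, where 13.9% of all genes tested were called higher and 14.6% lower. The largest increases were in Tfcp2l1, a factor of collecting duct cells (5.67 ± 0.29 SE), and in Grhl2 (4.94 ± 0.22 SE) and Ovol2 (4.02 ± 0.23 SE), regulators of epithelial identity. Lmx1b (-2.99 ± 0.37 SE) and Id2 (-1.67 ± 0.37 SE) were lower. Among 19 genes of bud signalling or reported as targets of these factors, 15 were tested, 11 were higher in bud and 2 lower. Cdh1, which encodes the adhesion protein E-cadherin, Ret, and the tubule inducer Wnt9b were higher by 7.07, 6.85 and 5.57. The podocyte and progenitor factor Wt1 and the Notch ligand Dll1 were lower, at -4.57 and -1.10. Cdh1, Ret and Wnt9b are also among the bud epithelium markers, Wt1 among the nephron progenitor markers and Dll1 among the early tubule markers. These counts are therefore not separate from the marker check.

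Laser-captured wild-type mesenchyme was higher than hand-dissected wild-type mesenchyme in 6 of the 8 genes tested, all but Pax8 and Sox9. By that rule 13.6% of all genes tested were called higher and 23.5% in either direction. In the same 6 genes all 4 captures lay above all 3 hand-dissected arrays, as in 19.5% of genes tested. Gata3, Lhx1 and Tfap2b were tested only because they passed the filter in the captures. The hand-dissected arrays here are those used against bud, so the 2 comparisons are not independent.

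The largest of these differences was that of Pou3f3, whose captures read 1485, 4852, 965 and 3262 (log2 difference 3.22 ± 0.46 SE, limma adjusted p = 0.00124). Tfap2b captures read 309.7, 745, 219.6 and 1058 (2.65 ± 0.51 SE, limma adjusted p = 0.00420). Lhx1 captures read 216, 611, 193.5 and 419 (2.51 ± 0.51 SE, limma adjusted p = 0.00551). In all 3 genes captures 2 and 4 were the highest. Gata3 differed by 2.39 ± 0.45 SE (limma adjusted p = 0.00382) and Emx2 by 2.29 ± 0.38 SE (limma adjusted p = 0.00226). Tfap2a captures read 627, 2137, 398 and 1472, and its difference of 1.63 ± 0.48 SE passed narrowly (limma adjusted p = 0.0309). It missed the threshold in 9 of 16 alternatives of that probe set, with values from 1.25 to 2.02 and an adjusted p of up to 0.104. The libraries whose removal ended the call were hand-dissected replicates 5, 6 and 7 and captures 2 and 4. A second Tfap2a probe set was also called higher, by 2.09 ± 0.56 SE (limma adjusted p = 0.0200), with no overlap of the groups.

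The chosen Sim1 probe set failed the filter in this comparison and was not tested, with captures at 163, 461, 52.2 and 617 and hand-dissected arrays at 22.3 or below. The second Sim1 probe set was tested and not called, with overlapping groups (-0.08 ± 0.38 SE, limma adjusted p = 0.894). Pax8 captures read 553, 548, 463 and 715, overlapping the hand-dissected arrays (0.31 ± 0.26 SE, limma adjusted p = 0.413). Sox9 captures read 259, 254, 953 and 1132, with a difference of -1.58 ± 0.56 SE that was not called (limma adjusted p = 0.0602). It was called lower without capture 3 (limma adjusted p = 0.0404) or capture 4 (limma adjusted p = 0.0353). The second Sox9 probe set gave -0.12 ± 0.40 SE.

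Bud markers moved with these 6 genes: 11 of the 12 tested were higher in captures, and each capture's sum of bud markers (12453 to 76538) lay above that of every hand-dissected array (3272 to 3488). Captures 2 and 4 had the highest bud marker sums. In 7 of the 9 genes, all but Pax8 and Sox9, wild-type captures 2 and 4 were also the highest. In the null captures replicates 2, 4 and 5 were each the highest for 3 genes, with bud marker sums of 29701, 15271 and 57824. That of null replicate 4 was the lowest null sum. The share of all genes with these orders was not counted. None of the 14 bud markers was at 0 in the hand-dissected arrays, but a signal above 0 does not show that a gene is expressed. Hoxb7 read 3.4 to 72.5 there and was not above the array median on any bud array either. Of the 14 markers, 7 (Cdh1, Cldn3, Cldn7, Esrp1, Cdh16, Krt19 and Hoxb7) were below the array median in all 3 hand-dissected arrays, Calb1 was above it in 2, and 6 (Ret, Wnt11, Wnt9b, Epcam, Krt8 and Krt18) were above it in all 3. Markers of other tissues differed as well. Of 6 erythroid markers 4 were called higher in captures, with sums of 86680 to 167819 against 64141 to 72987, and of 6 macrophage markers 2, Csf1r (1.41 ± 0.39 SE) and Tyrobp (1.78 ± 0.39 SE). Of 8 stroma markers 2 were higher and 4 lower. Of 8 nephron progenitor markers 1 was lower and 0 were higher, and the Six2 mean was 4712 in captures against 21975 in hand-dissected mesenchyme. Called higher were 2 of 9 early tubule, 1 of 8 neuron and neural crest and 1 of 5 cartilage markers. Of 7 endothelial markers 0 were called. The part of bud or other tissue in the capture signals was not tested.

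To set each gene beside the bud markers, mesenchyme signals were expressed as a percent of the same probe set's bud mean. The median of the 14 markers was 1.05% to 1.12% in hand-dissected arrays, 7.52%, 24.8%, 4.58% and 17.8% in wild-type captures 1 to 4, and 9.61%, 8.96%, 4.58%, 5.21% and 19.6% in null captures 1 to 5. Pou3f3 stood at 6.18%, 20.2%, 4.02% and 13.6% in the wild-type captures, below the marker median in all 4. Lhx1, Sim1 and Tfap2a were likewise below it in all 4. Gata3, at 8.50%, 15.4%, 5.94% and 24.2%, was above it in 3 of 4. Pax8 stood at 46.3% to 71.5% and was above it in every mesenchyme array of all 3 groups. Sox9 stood at 10.8% to 48.4% and was above it in 3 of 4. One of the 14 markers, Hoxb7, was not above the array median on any bud array, so its percent has no meaning as a bud level. With the other 13 markers, a choice made after seeing the data, the median was 0.622% to 0.859% in hand-dissected arrays, 7.00%, 24.4%, 4.10% and 14.9% in wild-type captures and 10.1%, 8.84%, 4.07%, 5.09% and 17.4% in null captures. The counts of captures above it were the same for each of the 9 genes. In hand-dissected arrays they went from 0 to 3 of 3 for Pou3f3, from 2 to 3 for Emx2 and from 1 to 2 for Tfap2b.

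**Figure D4:**
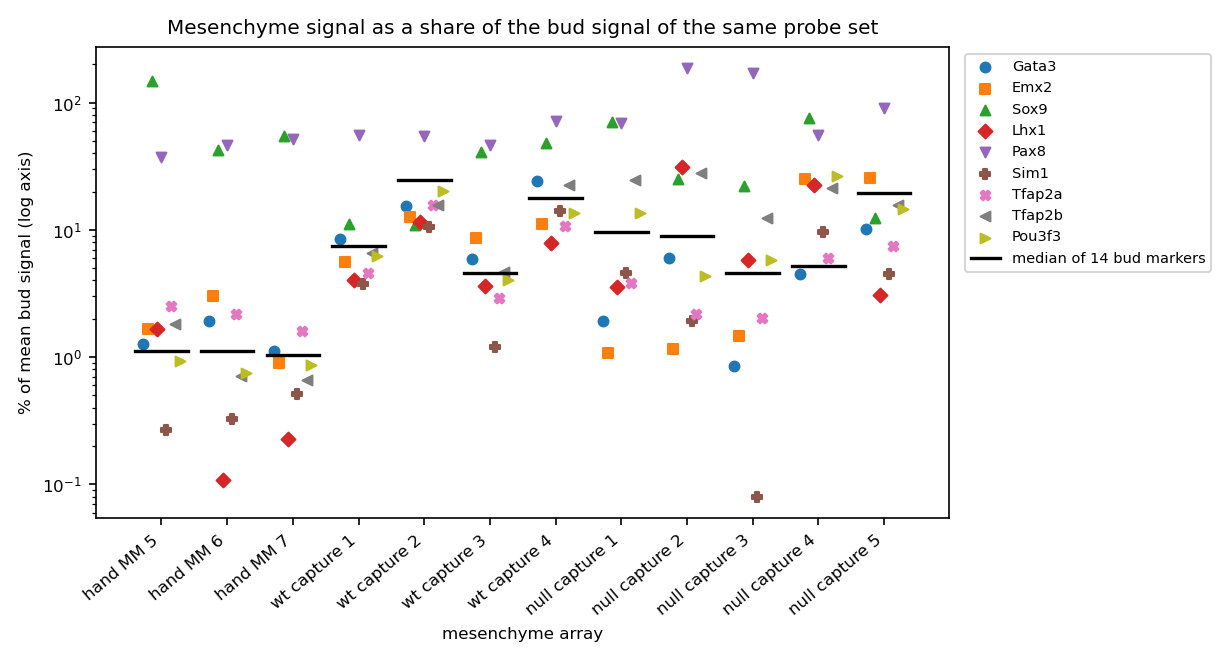
Signal of each of the 9 genes on the 12 mesenchyme arrays as a percent of that probe set's mean in bud (log axis), with a black bar at the median of 14 bud markers on the same array. Pax8 lies above the bar on all 12 arrays, and Gata3 lies below it on all 5 null captures.

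Between null and wild-type captures none of the 9 genes was called (limma, adjusted p under 0.05), and 1, Gata3, had an unadjusted p under 0.05, as did 19.1% of all genes tested. The adjusted rule called 1.74% of the 12161 genes tested. No gene of the 9 had all null arrays on one side of all wild-type captures, as 9.03% of genes tested did. The median log2 difference of the 9 was 0.22, against -0.10 over all genes tested. The SE of single genes ran from 0.38 to 0.94. Without null replicate 5 Sim1 failed the filter, and 0 of the other 8 genes were called, with 1 at an unadjusted p under 0.05.

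Gata3 read 67.3, 208.5, 29.5, 156.5 and 355 in the null captures, a mean of 163 ± 128 (SD, n = 5) against 470 ± 284 (SD, n = 4) in wild-type captures. The log2 difference was -1.43 ± 0.58 SE (limma adjusted p = 0.212), and the ranges overlapped from 207 to 355. As a percent of bud, Gata3 stood at 1.94%, 6.00%, 0.849%, 4.50% and 10.2% in null captures 1 to 5. It was below the bud marker median in all 5. Without null replicate 5 the difference was -1.74 (limma adjusted p = 0.143).

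Emx2 was split within the null captures, at 170, 182, 229.6, 3955 and 4026. Replicates 1 to 3 lay in the range of hand-dissected mesenchyme, and replicates 4 and 5 above every wild-type capture. The log2 difference was -1.02 ± 0.94 SE (limma adjusted p = 0.597), the widest error of the 9, and -1.65 without null replicate 5 (limma adjusted p = 0.333). The difference in plain means had the opposite sign, 1712 ± 2080 in null against 1491 ± 476 in wild-type captures. Replicate 5 was the array with high gonad and coelomic markers, and replicate 4 had the lowest summed nephron progenitor signal, 20741 against 42669 to 95053 in the other null captures. The part of such tissue differences in Emx2 was not tested.

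Lhx1 read 190.0, 1663, 311, 1202 and 163 in null captures (log2 difference 0.48 ± 0.67 SE, limma adjusted p = 0.742; 0.82 ± 0.66 SE without null replicate 5). Replicates 2 and 4 exceeded every wild-type capture, and replicates 1 and 5 lay below the lowest. The second Lhx1 probe set was too dim to be tested and leaned the other way, with means of 78.6 in null and 97.25 in wild-type captures. Sim1 read 200, 84.7, 3.5, 418 and 197 (-0.74 ± 0.76 SE, limma adjusted p = 0.638). It was above the array median in 2 of the 5 null and 2 of the 4 wild-type captures. The second Sim1 probe set gave -0.14 ± 0.35 SE (limma adjusted p = 0.866).

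The AP-2 genes lay on opposite sides of 0. Tfap2a read 518, 296, 278, 819.9 and 1020.1 (-0.83 ± 0.54 SE, limma adjusted p = 0.433; -1.06 ± 0.54 SE without replicate 5). Tfap2b read 1166, 1333, 590.3, 1016.5 and 737 (0.88 ± 0.45 SE, limma adjusted p = 0.321; 0.96 ± 0.49 SE without replicate 5) and stood above the bud marker median in 4 of 5 null captures. Neither was called, and the difference between them was not tested. The second Tfap2a probe set gave a smaller difference, -0.315 ± 0.53 SE (limma adjusted p = 0.789). The second Tfap2b probe set was too dim to be tested, with means of 171 in null and 56.1 in wild-type captures. Pou3f3 read 3278.5, 1033, 1393, 6419 and 3525 (0.22 ± 0.57 SE, limma adjusted p = 0.871; 0.10 ± 0.62 SE without replicate 5). Its sign turned when wild-type capture 3 or null capture 4 was left out (-0.17 and -0.11) and with array weights (-0.024).

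Pax8 read 695, 1856, 1705.5, 558 and 911 in null captures, a mean of 1145 ± 596 (SD, n = 5) against 569.6 ± 105 (SD, n = 4). The log2 difference was 0.83 ± 0.38 SE (limma adjusted p = 0.274), and 0.87 without null replicate 5 (limma adjusted p = 0.306). Replicates 2 and 3 were above every bud array. Sox9 read 1646, 582, 515, 1755 and 289 (0.52 ± 0.62 SE, limma adjusted p = 0.694; 0.84 ± 0.59 SE without replicate 5), and 0.97 ± 0.47 SE on its second probe set (limma adjusted p = 0.300).

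Marker lists were read in the same comparison, and some of their markers were called. The sum of 11 early tubule markers ran from 43529 to 63051 in null and from 18214 to 36896 in wild-type captures. In bud the same sum ran from 34169 to 43064.5, with Ccnd1 alone at a mean of 27193, so it is not particular to tubules. Of the 10 tested 2, Dll1 (2.32 ± 0.28 SE, limma adjusted p = 0.00407) and the Notch target Hey1 (1.03 ± 0.22 SE, limma adjusted p = 0.0436), were called higher. The median of the 10 was 0.80, and 8 lay above 0. Without null replicate 5 Dll1 was called (2.39 ± 0.31 SE, limma adjusted p = 0.00799) and Hey1 was not (1.08 ± 0.23 SE, limma adjusted p = 0.0558). Of the 13 bud markers tested none was called, and 2 had an unadjusted p under 0.05; their median was -0.55. Of 9 neuron and neural crest markers 1, Ina, was called higher, with a median of 1.21. Of 6 macrophage markers 1, Tyrobp, was called lower, 5 had an unadjusted p under 0.05, and the median was -2.32. Of 7 endothelial markers 0 were called by limma and 3 had an unadjusted p under 0.05, with a median of -0.93. Of 9 nephron progenitor, 8 stroma, 6 erythroid, 5 cartilage and 2 gonad and coelomic markers tested 0 were called. The part of these tissues in the values of the 9 genes was not tested.

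Among the family relatives 4 were tested and 0 called, with 1 at an unadjusted p under 0.05. That gene, Pou3f2, read 403 ± 317 in null and 89.2 ± 31.0 in wild-type captures with no overlap (1.55 ± 0.53 SE, limma adjusted p = 0.149; 1.38 ± 0.56 SE without null replicate 5). Of 20 other bud and duct regulators tested 0 were called, with 7 at an unadjusted p under 0.05, against 19.1% of all genes tested. Without null replicate 5 limma called 0 of the relatives, 0 of the regulators and 0 of the bud markers, with 2, 10 and 2 at an unadjusted p under 0.05. Of the neuron and neural crest markers Ina was called without it, and of the macrophage markers Laptm5 in place of Tyrobp.

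Genes outside the 9 were ranked for the likeness of their profiles by the root mean square difference between log2 profiles over the 16 arrays, each centred on its own mean, as a description with no test. For Tfap2a they were Cldn4 (0.42) and Lad1 (0.53), where the median over all genes was 2.18. For Gata3 they were 2610528J11Rik (0.52) and Tmprss2 (0.58), for Emx2 Septin4 (0.92) and Cntnap2 (0.95), and for Lhx1 Kcnk1 (0.70) and Eml5 (1.02). For Sim1 they were Cdh1 and Tmprss2 (0.85 each), for Pou3f3 Cdh1 (0.69) and Septin4 (0.74), and for Tfap2b Epcam (0.72) and Kcnk1 (0.73). Among the 9 themselves Tfap2a was the nearest to Gata3 (0.63), to Sim1 (0.67) and to Emx2 (0.93). Outside the 9, Pax8 was nearest to Dctd (0.25) and Dhrs7b (0.28), and Sox9 to Sertad4 (0.57) and Dusp16 (0.62). The median over all genes was 0.86 for Pax8 and 1.28 for Sox9, so distances of different genes do not compare directly. Among the 9, Pax8 and Sox9 were nearest to each other, at 1.41, which is above both of these medians.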

How the data were processed

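The deposited values are linear intensity signals, made by the authors with MAS5, per the submitters' processing notes. Neither a version nor detection calls are given in the sources used here. RNA was amplified in 2 rounds before hybridization, 1 array per sample, per the labels' protocols. The values show scaling of each array to a mean of 1500 after trimming 2% at each tail, which assumes equal total expression. Of 45101 probe sets, 64 controls were removed; 34945 of the rest had 1 symbol in the platform annotation, 932 several and 9160 none.

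Signals were taken as log2(signal + 36.3), the offset being the 25th percentile of all values, which understates changes of dim genes. A probe set was fitted if it exceeded its array's median on a number of arrays no smaller than the smaller group; the fit was made with limma 3.58.1 in R 4.3.3 (lmFit, eBayes with trend), with Benjamini-Hochberg adjustment over all kept probe sets and a threshold of 0.05. Each of the 3 comparisons used its own arrays only. SE is limma's moderated error and SD the spread between arrays. Replicates are separate embryos per the series text, and no pair of arrays was identical; their number limits the precision. No slide, scan date or litter is given in the sources used here. The fits were tested on simulated data with 50 changed probe sets per size. Changed probe sets were drawn only from those above the median in mean log2 signal, and all others had no difference. The shares called therefore do not describe dim genes, or comparisons in which many probe sets differ. For null against wild-type captures, log2 differences of 1, 2, 4 and 5 were called in 20%, 64%, 84% and 96%. For bud against hand-dissected mesenchyme these shares were 28%, 72%, 94% and 98%. For captures against hand-dissected mesenchyme they were 24%, 74%, 90% and 96%. Alternatives were other offsets, a floor, other filters, quantile and median scaling, no trend, array weights, a replicate block and leaving out each array. Tables and figures used Python 3.11.15, pandas 2.3.3, numpy 2.4.6 and matplotlib 3.10.9.

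The 9 genes, the lists, the motifs and the rules were chosen with earlier results of these data known. Named were all 9 genes with their probe sets, all measured relatives, up to 3 called genes in each direction from the other lists where a result used them, and the 2 genes nearest in profile.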

Additional observations from a re-analysis of the deposited data

How the results depend on the processing

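Between bud and hand-dissected mesenchyme, 8 of the 9 genes were called under each of 17 alternatives and 9 against the wild-type captures alone; the null comparison called 0 of them throughout (limma; 0 to 3 with an unadjusted p under 0.05), and captures against hand-dissected mesenchyme called 5 to 7. Over single genes and settings, 449 values kept direction and side of the threshold, 6 passed it newly (all Sox9), 9 lost it (all Tfap2a in the captures) and 4 turned sign, 3 of them of Pou3f3 in null against wild-type captures: -0.024 with array weights, and -0.17 to 0.60 with 1 array left out (main 0.22). The other was Pax8 in captures against hand-dissected mesenchyme under quantile normalization (-0.0009, main 0.31). The causes were not tested.

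Counts over all probe sets moved more. For bud against mesenchyme, 5701 probe sets were called and 10132 with array weights. For null against wild-type captures, 411 were called, but 256 without the filter, 207 with median centring, 215 without the intensity trend and 1654 with array weights; leaving out 1 array gave 60 to 1809, the highest without null replicate 1 and the lowest without wild-type replicate 3. For captures against hand-dissected mesenchyme, 5866 were called, and 3384 to 5994 with 1 array left out, the lowest without hand-dissected replicate 7. Median centring widened the balance of higher to lower calls for bud (4015 to 2204 in place of 2952 to 2749) and turned it in the other 2 comparisons: 136 to 71 in place of 138 to 273 for null, and 2435 to 3207 in place of 3857 to 2009 for captures, where quantile normalization gave 2924 to 2551. The median probe set shift was 0.02, -0.15 and 0.11 in the main settings and 0.16, 0.15 and -0.08 with median centring.

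Null and wild-type captures share replicate numbers 1 to 4, but same-numbered arrays did not deviate together (correlations of -0.0052, 0.03, -0.05 and 0.07). The replicate block gave 53 calls over all probe sets and 0 among the 9 genes, with 3 at an unadjusted p under 0.05.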
